A study of Mus musculus with 16 samples.

Results

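The genes described here are a list of 46 mouse genes of mitosis and the spindle, followed by their RNA level in the distal stump of the crushed sciatic nerve. A gene was included when a probe set of the array carried its symbol alone, and of several such probe sets the one brightest on average across the 16 arrays stood for the gene. This rule found 45 of the 46, out of 18193 genes measured in all, and each of the 45 also passed the filter on dim genes that left 14545 genes for testing. Ccnb1 was not analysed here. The 8 groups were WldS mice (C57BL/6 OlaHsd-Wlds, labelled as the mutant) and C57BL/6 mice (labelled as wild type), each uninjured (day 0) and at 3, 7 and 14 days after a microcrush of the left sciatic nerve at mid-thigh, with 2 arrays per group. Mice were 8 to 12 weeks old, 56 per strain, and the 4 mm of nerve from 1 to 5 mm distal to the lesion (or 4 mm of naive nerve) was pooled by group before RNA extraction. WldS mice carry a fusion gene of Ube4b and Nmnat1 under which cut axons survive far longer than in other mice. The labels give a different source strain for the wild type, so the WldS allele and other differences between the strains cannot be told apart. The number of mice in a pool was not given, and p-values below measure the spread between pools.

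In an intact nerve most Schwann cells, fibroblasts and endothelial cells are at rest. After a crush, the axons beyond the lesion break down, Schwann cells lose their myelin and divide, and macrophages enter from the blood. Cells that enter mitosis make a set of proteins in G2 and M phase, among them cyclin B and Cdk1, which drive entry, the kinetochore and its checkpoint, which hold chromosomes until all are attached, the motors and bundlers of the spindle, and Cdc20, which turns on the anaphase-promoting complex. Their RNA falls again when cells leave the cycle, so in whole tissue the level follows how many cells divide and how much RNA each holds, and these cannot be told apart.

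Many promoters of G2 and M phase genes carry a short element called the CHR (cell cycle genes homology region), often beside CCAAT boxes, through which the DREAM and MuvB complexes, FOXM1 and NF-Y act. RefSeq promoter windows of the GRCm38.p6 build, 300 bases from 250 before to 50 after each gene's start, were at hand for 38 of the 45 measured genes, all but Ccna2, Cdc25c, Foxm1, Aurkb, Kif20a, Tpx2 and Smc4. The CHR letters TTTGAA or TTCGAA, on either strand, were in a window of 30 of the 38 (78.9%), against 21.7% of all 27025 genes in the table. CCAAT, on either strand, was in 30 of the 38 (78.9%), against 41.1% of all genes, and both motifs were in 27 (71.1%), against 9.7%. Related lists held the CHR letters too, with 55.2% of 29 other spindle and cytokinesis genes, 48.5% of 33 other kinetochore genes, 43.5% of 23 other entry regulators, 42.9% of 14 pocket protein, MuvB and E2F genes and 41.7% of 12 cohesin and condensin genes, against 20.0% of 15 anaphase-promoting complex subunits and 19.0% of 21 S-phase genes. Matches of the 2 motifs overlapped in 0 of the 40 windows of the 38 genes. The 150 bases before the start are shown for 7 genes that hold the CHR letters and anchor the account below (Mki67, Top2a, Cdk1, Cdc20, Ube2c, Kif11 and Espl1). They are also shown for 2 genes that rose and whose windows lack these letters (Birc5 and Cks2). Bases outside the windows were not searched. Capitals mark CHR and CCAAT matches of either strand. The stretches shown lie at chr7:135716380-135716529 on the minus strand (Mki67), chr11:99024190-99024339 on the minus strand (Top2a), chr10:69352913-69353062 on the minus strand (Cdk1), chr4:118437344-118437493 on the minus strand (Cdc20), chr2:164769779-164769928 on the plus strand (Ube2c), chr19:37376232-37376381 on the plus strand (Kif11), chr15:102296143-102296292 on the plus strand (Espl1), chr11:117849087-117849236 on the plus strand (Birc5) and chr13:51645082-51645231 on the plus strand (Cks2).
Mki67: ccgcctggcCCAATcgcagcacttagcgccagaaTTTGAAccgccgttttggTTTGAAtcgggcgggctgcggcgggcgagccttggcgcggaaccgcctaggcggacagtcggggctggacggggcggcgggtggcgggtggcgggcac
Top2a: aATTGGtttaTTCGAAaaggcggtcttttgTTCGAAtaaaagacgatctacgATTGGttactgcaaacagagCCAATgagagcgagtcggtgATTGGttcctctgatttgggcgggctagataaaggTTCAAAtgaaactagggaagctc
Cdk1: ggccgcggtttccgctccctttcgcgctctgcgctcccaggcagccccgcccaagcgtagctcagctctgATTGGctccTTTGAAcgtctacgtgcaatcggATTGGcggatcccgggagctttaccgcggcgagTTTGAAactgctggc
Cdc20: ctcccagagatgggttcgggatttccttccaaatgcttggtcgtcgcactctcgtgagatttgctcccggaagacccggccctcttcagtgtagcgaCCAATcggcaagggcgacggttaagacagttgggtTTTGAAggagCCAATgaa
Ube2c: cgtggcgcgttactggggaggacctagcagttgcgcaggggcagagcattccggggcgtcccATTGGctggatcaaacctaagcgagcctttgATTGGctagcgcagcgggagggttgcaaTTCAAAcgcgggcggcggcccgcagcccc
Kif11: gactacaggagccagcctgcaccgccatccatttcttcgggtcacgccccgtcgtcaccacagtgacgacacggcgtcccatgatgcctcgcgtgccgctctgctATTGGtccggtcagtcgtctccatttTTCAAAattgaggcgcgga
Espl1: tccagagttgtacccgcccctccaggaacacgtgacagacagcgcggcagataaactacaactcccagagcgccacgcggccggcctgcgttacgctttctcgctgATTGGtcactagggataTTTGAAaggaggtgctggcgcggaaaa
Birc5: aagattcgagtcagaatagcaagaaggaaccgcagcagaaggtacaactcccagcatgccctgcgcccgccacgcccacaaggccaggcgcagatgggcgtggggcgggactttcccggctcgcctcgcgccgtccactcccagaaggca
Cks2: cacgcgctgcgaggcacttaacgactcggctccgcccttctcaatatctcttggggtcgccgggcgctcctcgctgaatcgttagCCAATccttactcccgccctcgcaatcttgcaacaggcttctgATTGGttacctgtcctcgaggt
Counted from -1 as the last base before the start, the CHR letters nearest the start begin at base -15 in Cdk1, -18 in Cdc20, -19 in Kif11, -23 in Top2a, -27 in Espl1, -29 in Ube2c and -98 in Mki67. A match is a description of these letters and does not show that a factor binds. The 30 genes with the CHR letters rose by a median of 2.11 in WldS and 2.68 in C57BL/6 at day 3 (log2), with ranges of 0.87 to 4.17 and 1.44 to 5.11. The 8 without them in the window, Cks2, Nek2, Melk, Birc5, Mad2l1, Cenpe, Nuf2 and Nusap1, rose by a median of 2.26 and 2.61, with ranges of 1.01 to 4.03 and 1.93 to 4.26, so the spans overlapped almost wholly.

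Nearly all of the mitosis genes rose after the crush in both strains and stayed above their uninjured level for 14 days. At day 3 after the crush, 44 of the 45 were higher than in uninjured nerve in WldS and all 45 in C57BL/6, with a median difference of 2.07 on the log2 scale in WldS (4.21-fold) and 2.65 in C57BL/6 (6.27-fold), beside medians over all genes tested of -0.02 and 0.02. Over all 14545 genes, 20.8% were called higher in WldS at that day and 22.6% in C57BL/6 (adjusted p below 0.05 in limma). At day 7, 44 of 45 were higher in WldS, where 21.9% of all genes were, and 45 of 45 in C57BL/6, where 19.6% were, with medians of 1.83 and 2.13. At day 14 the counts were 42 in WldS and 41 in C57BL/6, against 12.7% and 17.1% of all genes, and the order of the strains had turned, with medians of 1.60 in WldS and 1.17 in C57BL/6. No gene of the list was called lower than in uninjured nerve in any of these 6 comparisons. Both injured arrays lay above both uninjured arrays for each of the 45 genes in all of them but the C57BL/6 day 14 comparison, where 44 did so. Of all genes, 28.1% to 39.1% did so in these comparisons. The genes not called were Foxm1 in WldS at days 3 and 7, Foxm1, Cenpe and Racgap1 in WldS at day 14, and Foxm1, Hmmr, Anln and Ncapd2 in C57BL/6 at day 14.

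The median level of the 45 genes in a single array was 6.06 to 6.22 at day 0, 8.42 to 8.47 at day 3, 8.14 to 8.35 at day 7 and 7.81 to 8.01 at day 14 in WldS, and 6.17 to 6.19, 8.98 to 9.13, 8.48 to 8.49 and 7.48 to 7.59 on the same days in C57BL/6 (log2 signal). The strains' array medians thus overlapped only when uninjured, WldS being the lower at days 3 and 7 and the higher at day 14. The arrays' own medians over all probe sets were nearly equal (6.42 to 6.49). Pools of the same group differed by a median standard deviation over the list of 0.08 (C57BL/6 day 3, the lowest) to 0.16 (WldS day 7, the highest). A 3'/5' index of RNA quality, which sets the 3' against the 5' control probe sets of Actb and Gapdh (log2), reached 3.81 in replicate 1 of uninjured WldS nerve and 3.23 in replicate 2 of WldS at day 14, against 1.63 to 2.46 in the other 14 arrays. In uninjured nerve 9 genes in WldS (Ccnb2, Cdc25c, Aurka, Melk, Birc5, Bub1, Kif20a, Kif2c and Ncapg) and 7 in C57BL/6 (the same without Melk and Ncapg) averaged below the dim filter at 5.37. Their changes from day 0 may be understated, which was not tested, and their interactions and retained shares rest on the same dim values. Kif20a also averaged below the filter in C57BL/6 at day 14.

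**Figure D1:**
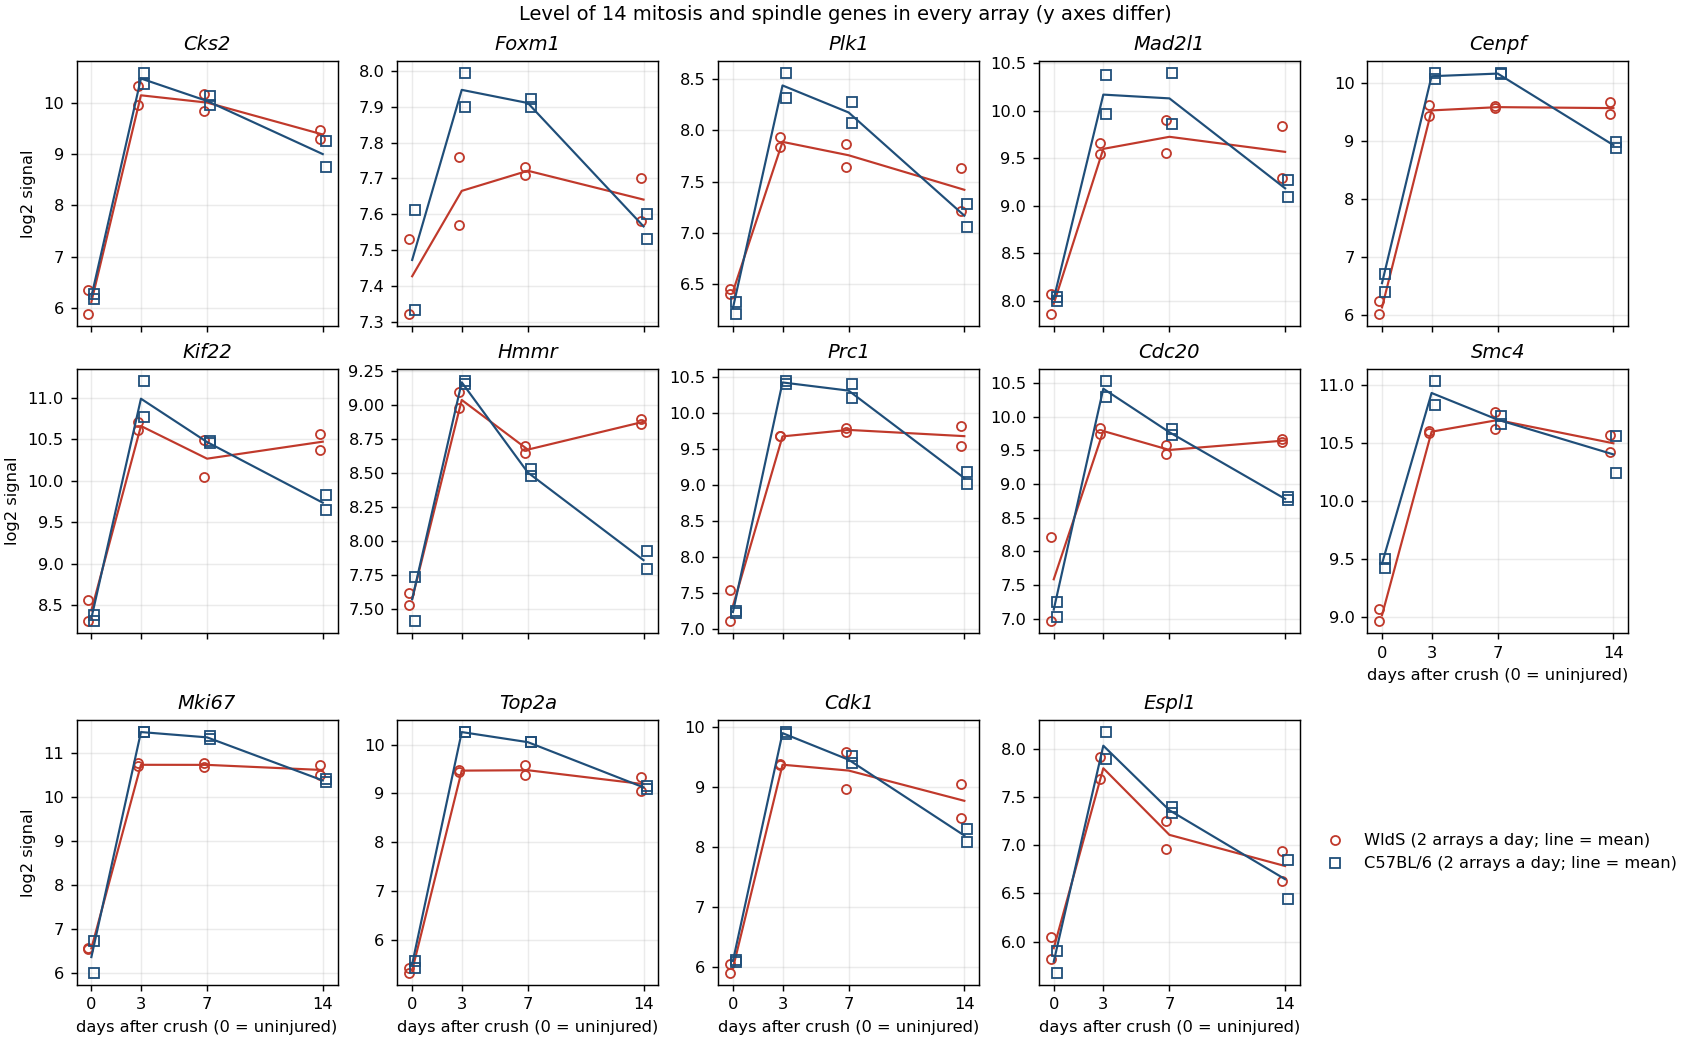
Log2 signal of 14 genes of the list (y axes, each panel with its own range) against days after the crush, with day 0 for uninjured nerve. Circles are WldS arrays and squares C57BL/6 arrays, 2 per strain and day, and lines join the means. In 13 panels both strains are highest at day 3 or 7 and C57BL/6 drops further between days 7 and 14, while Foxm1 moves little (0.47 at most, in C57BL/6 at day 3).

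Mki67 and Top2a led the list in size. Mki67 encodes the Ki-67 protein that coats mitotic chromosomes and marks cycling cells. In WldS, Mki67 was at 6.58 and 6.55 at day 0, 10.70 and 10.77 at day 3, 10.70 and 10.77 at day 7, and 10.73 and 10.51 at day 14. In C57BL/6 it was at 6.01 and 6.72 at day 0, 11.48 and 11.48 at day 3, 11.39 and 11.32 at day 7, and 10.42 and 10.34 at day 14. All injured arrays stood far above the uninjured ones of their strain, with changes from day 0 of 4.17, 4.17 and 4.05 in WldS and 5.11, 4.99 and 4.01 in C57BL/6 at days 3, 7 and 14. Top2a, the topoisomerase that untangles sister chromatids, was in WldS at 5.42 and 5.33 at day 0, 9.45 and 9.49 at day 3, 9.37 and 9.58 at day 7, and 9.33 and 9.05 at day 14. In C57BL/6 arrays Top2a read 5.58 and 5.43 at day 0, 10.26 and 10.26 at day 3, 10.04 and 10.06 at day 7, and 9.15 and 9.10 at day 14. Its 4 injured WldS arrays of days 3 and 7 lay below the 4 injured C57BL/6 arrays of those days, while at day 14 the strains overlapped.

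The other chromosome structure genes encode condensin subunits, the rings that compact mitotic chromosomes. Smc4 is shared by both condensin complexes. Its WldS arrays were at 8.96 and 9.07 at day 0, 10.59 and 10.61 at day 3, 10.62 and 10.77 at day 7, and 10.57 and 10.43 at day 14, and its C57BL/6 arrays at 9.42 and 9.50 at day 0, 10.83 and 11.04 at day 3, 10.67 and 10.74 at day 7, and 10.56 and 10.25 at day 14. Smc4 changed less than most of the list, by 1.58 in WldS and 1.47 in C57BL/6 at day 3. It was the only gene of the list whose rise at day 3 was larger in WldS, and that difference was not called (interaction 0.11 ± 0.18, adjusted p = 0.782). Smc2, its partner, rose by 2.15 in WldS and 2.62 in C57BL/6 at day 3, Ncapg by 2.41 in WldS and 2.81 in C57BL/6, and Ncapd2 by 1.03 in WldS and 1.44 in C57BL/6. Ncapg had the largest fall of the list between days 7 and 14 in C57BL/6 (-1.78), although its pools differed there, at 6.68 and 5.94, and also in WldS at day 3, at 7.09 and 8.07.

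Cdk1 and its partners formed the role group with the largest median rise at day 3, 3.27 in WldS and 3.80 in C57BL/6 over 5 genes. Cdk1 is the kinase that starts mitosis, and its WldS arrays were at 5.90 and 6.06 at day 0, 9.36 and 9.38 at day 3, 8.97 and 9.58 at day 7, and 9.06 and 8.48 at day 14. The C57BL/6 arrays of Cdk1 were at 6.12 and 6.08 at day 0, 9.92 and 9.88 at day 3, 9.40 and 9.51 at day 7, and 8.09 and 8.29 at day 14. Both strains peaked at day 3, and at days 7 and 14 the WldS pools lay farther apart than the C57BL/6 pools. Cks2, a small subunit that docks Cdk1 to its substrates, rose more than Cdk1 itself. In WldS it was at 5.88 and 6.35 at day 0, 9.96 and 10.33 at day 3, 10.17 and 9.84 at day 7, and 9.48 and 9.29 at day 14, and in C57BL/6 at 6.17 and 6.26 at day 0, 10.37 and 10.58 at day 3, 9.95 and 10.13 at day 7, and 8.75 and 9.25 at day 14. The strains overlapped at days 0 and 7, and neither its day 3 (-0.33) nor its day 14 difference (0.38) was called. Ccna2 (cyclin A2) rose by 2.99 in WldS and 3.78 in C57BL/6 at day 3, and Ccnb2 (cyclin B2) by 3.27 and 3.82. Cdc25c, a phosphatase that activates Cdk1, rose least of the group (1.32 and 1.79) and lost much of it early in C57BL/6, where its day 7 rise was 50.5% of its day 3 rise, the lowest share of the list.

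Foxm1, the transcription factor that activates many G2 and M phase genes, was the least responsive of the list. WldS arrays were at 7.53 and 7.32 at day 0, 7.57 and 7.76 at day 3, 7.71 and 7.73 at day 7, and 7.70 and 7.58 at day 14. C57BL/6 arrays were at 7.61 and 7.33 at day 0, 7.90 and 7.99 at day 3, 7.90 and 7.92 at day 7, and 7.60 and 7.53 at day 14. Its change from day 0 was 0.24 ± 0.12 in WldS at day 3 (adjusted p = 0.151) and 0.47 ± 0.12 in C57BL/6 (adjusted p = 0.00633), where it was called at days 3 and 7. Of its 3 other probe sets, the 2 above the dim filter on average moved by 0.38 and 0.63 in WldS and by 0.52 and 0.94 in C57BL/6 at day 3.

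All 5 kinases of the group of Plk1, Aurora kinases, Nek2 and Melk rose at day 3, by 1.12 to 2.21 in WldS and 1.93 to 2.49 in C57BL/6. Plk1 (Polo-like kinase 1) acts at centrosomes, kinetochores and the midbody. Plk1 in WldS was at 6.41 and 6.45 at day 0, 7.83 and 7.94 at day 3, 7.87 and 7.64 at day 7, and 7.63 and 7.21 at day 14. In C57BL/6 Plk1 was at 6.21 and 6.33 at day 0, 8.32 and 8.56 at day 3, 8.07 and 8.28 at day 7, and 7.06 and 7.28 at day 14. At day 3 both WldS arrays lay below both C57BL/6 arrays, a difference of -0.55 ± 0.15 (adjusted p = 0.0339). Aurka, the Aurora kinase of spindle poles, rose by 1.70 in WldS and 2.49 in C57BL/6, Aurkb, the Aurora kinase of the chromosomal passenger complex, by 1.53 and 2.22, Nek2, a centrosome kinase, by 1.12 and 1.93, and Melk by 2.21 and 2.48. Birc5 (survivin), the passenger that brings Aurkb to centromeres, rose by 3.50 and 3.76, more than the 5 kinases of this group. Nek2 had the highest step of the list from day 3 to day 7 in both strains, 0.25 in WldS and 0.17 in C57BL/6, and neither was called.

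The spindle checkpoint keeps Cdc20 in check until every kinetochore is attached. Mad2l1 (Mad2), the protein that binds Cdc20, was at 7.86 and 8.07 at day 0, 9.54 and 9.66 at day 3, 9.55 and 9.90 at day 7, and 9.84 and 9.29 at day 14 in WldS. It was at 8.03 and 8.00 at day 0, 9.96 and 10.38 at day 3, 9.86 and 10.40 at day 7, and 9.27 and 9.10 at day 14 in C57BL/6. The pools of several groups lay far apart, and the strains overlapped at days 0 and 7, while at day 3 both WldS arrays were the lower and at day 14 both were just the higher. Bub1 and Bub1b (BubR1), which scaffold the checkpoint, rose by 2.26 and 1.61 in WldS and 2.96 and 2.37 in C57BL/6 at day 3. Ttk (Mps1), the kinase at the top of the checkpoint, rose by 1.14 in WldS against 2.29 in C57BL/6, over uninjured means of 5.87 and 5.43.

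Among kinetochore genes, Cenpf, a large protein of the outer kinetochore, changed most. Cenpf was at 6.23 and 6.01 at day 0, 9.44 and 9.61 at day 3, 9.57 and 9.60 at day 7, and 9.67 and 9.46 at day 14 in WldS. The C57BL/6 values of Cenpf were 6.70 and 6.38 at day 0, 10.06 and 10.17 at day 3, 10.17 and 10.15 at day 7, and 8.98 and 8.87 at day 14. In WldS its steps between injured days were small (0.06 and -0.02), whereas in C57BL/6 it held its level at day 7 (0.05) and fell at day 14 (-1.24). Cenpa, the histone H3 variant that marks centromeres, rose by 2.63 in WldS and 3.26 in C57BL/6, and Cenpe, a kinetochore motor, by 1.01 and 1.98. Ndc80, Nuf2 and Spc25 belong to the Ndc80 complex that grips microtubules. They rose by 1.48, 2.31 and 2.07 in WldS and by 2.07, 2.74 and 3.37 in C57BL/6. Among these subunits of the same complex the share of the day 3 rise left at day 14 in WldS was 111.3% for Spc25 and 67.3% for Ndc80, with no test.

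The kinesin motors shared the pattern, with some spread in size. Kif22 (Kid), which pushes chromosome arms toward the spindle equator, was in WldS at 8.56 and 8.31 at day 0, 10.61 and 10.71 at day 3, 10.04 and 10.49 at day 7, and 10.37 and 10.57 at day 14. In C57BL/6 Kif22 was at 8.38 and 8.30 at day 0, 11.21 and 10.77 at day 3, 10.48 and 10.46 at day 7, and 9.65 and 9.82 at day 14. At day 14 both WldS arrays were above both C57BL/6 arrays. Kif2c (MCAK), which takes microtubules apart at centromeres, had the largest change of the motors, 3.23 in WldS and 4.35 in C57BL/6 at day 3. Kif20a, a motor of cytokinesis, rose by 2.01 and 3.20, Kif23, which bundles the central spindle with Racgap1, by 2.05 and 2.71, Kif11 (Eg5), which pushes spindle poles apart, by 1.56 and 2.34, and Kif4, which acts on chromosomes and the central spindle, by 1.06 and 1.79. Kif20a kept least of its rise among the motors, with 42.0% of the day 3 rise left at day 14 in WldS and 22.4% in C57BL/6.

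Hmmr, a hyaluronan receptor that also binds spindle microtubules, was the spindle assembly gene with the highest level. Hmmr was at 7.62 and 7.53 at day 0, 8.98 and 9.10 at day 3, 8.65 and 8.70 at day 7, and 8.86 and 8.90 at day 14 in WldS, and its C57BL/6 arrays were at 7.41 and 7.73 at day 0, 9.18 and 9.16 at day 3, 8.53 and 8.48 at day 7, and 7.93 and 7.79 at day 14. At day 3 both WldS arrays were slightly the lower, and at days 7 and 14 both were the higher, the C57BL/6 arrays of day 14 having come close to their uninjured level (0.29). Tpx2, which activates Aurka on the spindle, rose by 2.20 in WldS and 2.83 in C57BL/6, Nusap1, which binds spindle microtubules near chromosomes, by 2.97 and 3.24, and Ckap2l by 1.29 and 1.85.

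Of the cytokinesis genes, Prc1 bundles the central spindle. In WldS, Prc1 arrays were at 7.53 and 7.10 at day 0, 9.68 and 9.68 at day 3, 9.74 and 9.80 at day 7, and 9.82 and 9.54 at day 14. Those of C57BL/6 were at 7.25 and 7.22 at day 0, 10.41 and 10.45 at day 3, 10.22 and 10.41 at day 7, and 9.18 and 9.02 at day 14. All 6 injured WldS arrays lay close together, and the C57BL/6 level fell between days 7 and 14 (-1.22). Ect2, the exchange factor that activates RhoA at the cleavage plane, rose by 2.70 in WldS and 3.10 in C57BL/6 at day 3, Anln (anillin), a scaffold of the contractile ring, by 1.63 and 1.66, and Racgap1, the partner of Kif23, by 0.87 and 1.79. With the probe set used, Racgap1 kept the smallest share of its rise in WldS, 34.9% at day 14, which was not called (0.30 ± 0.12, adjusted p = 0.0918).

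Steps of anaphase are covered by Cdc20, the activator of the anaphase-promoting complex, Ube2c, an E2 enzyme of that complex, and Espl1 (separase), the protease that cuts cohesin. Cdc20 was in WldS at 8.21 and 6.96 at day 0, 9.74 and 9.84 at day 3, 9.44 and 9.57 at day 7, and 9.66 and 9.63 at day 14. In C57BL/6 Cdc20 was at 7.25 and 7.02 at day 0, 10.30 and 10.53 at day 3, 9.73 and 9.81 at day 7, and 8.76 and 8.80 at day 14. Its uninjured WldS pools lay far apart, the higher being the array with the highest 3'/5' index, and its WldS change at day 3 was 2.20, against 3.28 in C57BL/6. Espl1 was in WldS at 6.05 and 5.82 at day 0, 7.91 and 7.68 at day 3, 6.96 and 7.25 at day 7, and 6.63 and 6.94 at day 14, against 5.68 and 5.91 at day 0, 8.17 and 7.89 at day 3, 7.39 and 7.33 at day 7, and 6.45 and 6.85 at day 14 in C57BL/6. It fell early in both strains, and it was the only gene of the list called lower from day 3 to day 7 in WldS (-0.69 ± 0.17, adjusted p = 0.026), with -0.67 ± 0.17 in C57BL/6 (adjusted p = 0.014). Ube2c rose by 2.58 in WldS and 3.24 in C57BL/6 at day 3. Securin, the inhibitor that holds separase until anaphase, is encoded by Pttg1, which is not on the list. Pttg1 was at 2.28 in WldS and -0.72 in C57BL/6 at day 3 against day 0, over uninjured levels that already differed by -2.77 (10.3 in WldS and 13.1 in C57BL/6), while at day 3 the strains were within 0.23 of each other. Whether its probe set reads both strains alike was not tested.

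The course after day 3 differed between the strains, with genes called in a direct test of the steps only from day 7 to day 14. In C57BL/6 the list fell, first in part and then nearly as a whole. In WldS at most 1 gene was called in either step, but most steps were negative there too. That held for 34 of 45 genes from day 3 to day 7 and 39 from day 7 to day 14. From day 3 to day 7 the median step was -0.13 in WldS, where 1 of 45 genes was called lower and 0 higher, and -0.43 in C57BL/6, where 22 were lower and 0 higher. Over all genes 3.58% were called lower in WldS and 10.7% in C57BL/6. The C57BL/6 falls were largest for Kif20a (-1.05), Ccnb2 (-1.0), Ube2c (-0.99), Tpx2 (-0.93) and Cdc25c (-0.89). Spc25 (0.03), Smc2 (-0.03) and Mad2l1 (-0.04) stood almost at their day 3 level there. The count of 22 was 11 without C57BL/6 day 3 replicate 1, 9 without C57BL/6 day 7 replicate 1 and 10 without C57BL/6 day 7 replicate 2, and the WldS count of 1 was 7 without WldS day 7 replicate 2 and 0 without any of the other 3 arrays compared.

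From day 7 to day 14 the median step was -0.25 in WldS, with 0 genes called by limma (13 at an unadjusted p below 0.05), and -0.98 in C57BL/6, with 41 of 45 called lower and 0 higher. The shares over all genes were 3.62% lower in WldS and 2.79% lower in C57BL/6. All 45 genes had both C57BL/6 day 14 arrays below both day 7 arrays, as had 32.0% of all genes, and Cdc25c, Foxm1, Smc2 and Smc4 were the 4 not called. The largest called falls in C57BL/6 were those of Ncapg (-1.78), Kif20a (-1.43), Spc25 (-1.38), Kif2c (-1.32) and Nuf2 (-1.29). In WldS the steps of single genes ran from -0.77 in Ccnb2 to 0.21 in Kif22. Without single WldS arrays its count was 7 (day 7 replicate 1), 3 (day 14 replicate 1) and 4 (either day 0 array). The difference between the strains' steps (WldS step minus C57BL/6 step) gave a median of 0.71 over days 7 to 14 and was positive in all 45 genes. It was called in 9 (Bub1b, Cenpf, Nuf2, Spc25, Kif2c, Hmmr, Ckap2l, Prc1 and Ube2c), where 0.626% of all genes were called higher. No other probe set of Bub1b, Cenpf, Spc25, Kif2c or Ckap2l exceeded 0.43 in this difference, while that of Prc1 had 1.04. For days 3 to 7 the median was 0.25, with 0 genes called by limma (7 at an unadjusted p below 0.05) and 1.15% of all genes called higher, and 3 genes were called without WldS day 7 replicate 1. The spread in these tests comes from all 16 arrays, and for days 7 to 14 leaving out either uninjured WldS array gave 13 called genes in place of 9. The count of 9 was 4 without WldS day 7 replicate 1, 5 without WldS day 14 replicate 1, 4 without C57BL/6 day 7 replicate 1, 3 without C57BL/6 day 7 replicate 2 and 4 without C57BL/6 day 14 replicate 2.

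**Figure D2:**
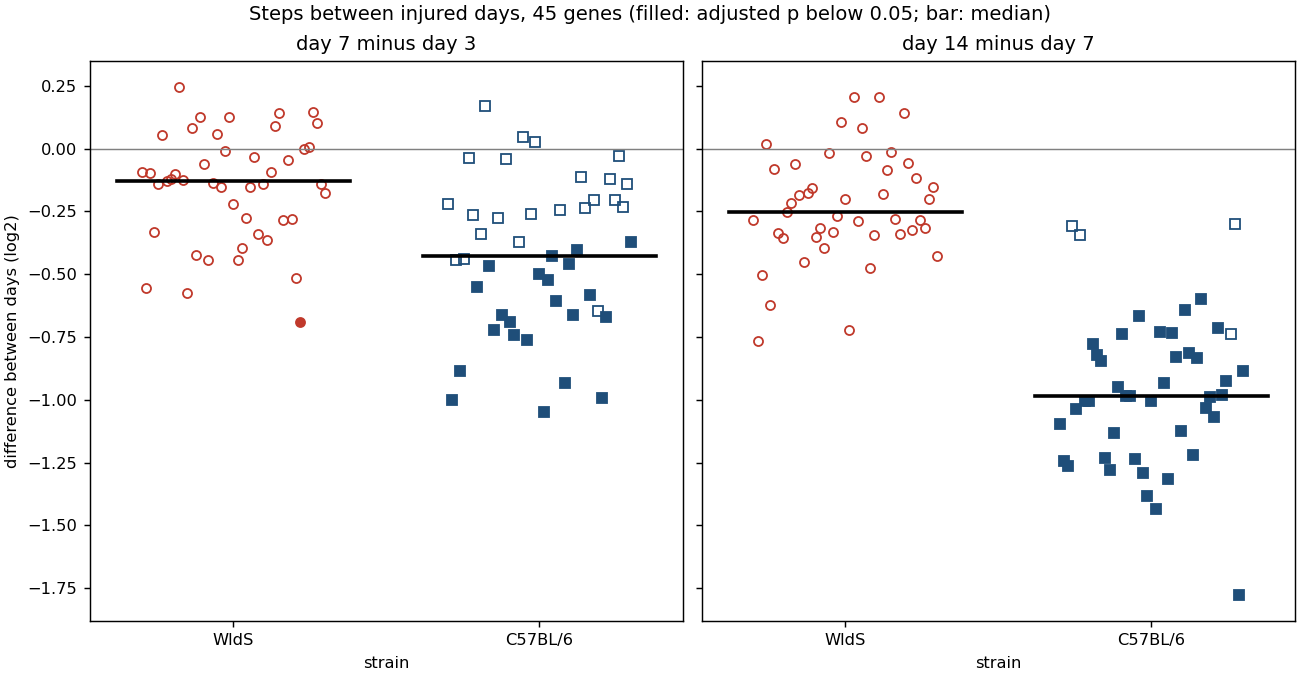
Difference between injured days (log2, y axis) for the 45 genes in WldS (circles, left) and C57BL/6 (squares, right), for day 7 minus day 3 and day 14 minus day 7. Filled points passed limma's adjusted p of 0.05 and bars are medians. The bars for day 14 minus day 7 are at -0.25 in WldS and -0.98 in C57BL/6.

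By day 14 the list kept a median of 82.3% of its day 3 rise in WldS and 47.0% in C57BL/6, on the log2 scale and with no test, and the share was higher in WldS for each of the 45 genes. This share divides by the day 3 rise, which was smaller in WldS for 44 of the 45. The day 14 rise itself was larger in WldS for 40 genes and smaller for 5. In WldS the share ran from 34.9% (Racgap1) to 111.3% (Spc25), and in C57BL/6 from 12.7% (Ncapd2) to 78.5% (Mki67). Mki67 and Top2a kept 97.2% and 93.2% in WldS and 78.5% and 76.2% in C57BL/6, Mki67 thus having the largest share of the list in C57BL/6. Hmmr (89.0% in WldS against 18.0% in C57BL/6) and Ncapg (87.9% against 31.6%) had wide gaps between the strains. Racgap1 (34.9% against 34.0%) and Espl1 (45.7% against 38.2%) had narrow ones. The Foxm1 shares (89.8% against 19.7%) rest on small rises, which were not called in WldS at day 3 or day 14. For Racgap1 the narrow gap holds for the probe set used. Another changed by 2.16 and 2.34 at days 3 and 14 in WldS, and by 3.20 and 2.02 in C57BL/6. The highest mean fell on day 3 for 34 genes, on day 7 for 10 and on day 14 for 1 (Spc25) in WldS, and on day 3 for 42 and day 7 for 3 in C57BL/6. Day 0 was the lowest for all 45 in both strains.

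Between uninjured nerves of the strains limma called 0 genes of the list, with 9 at an unadjusted p below 0.05 and 0.227% of all genes called in either direction, and the median difference was 0.00. Without WldS day 0 replicate 2, 1 gene was called. At day 3 the list was lower in WldS, by a median of -0.61 (0.653 of the C57BL/6 level), beside 0.00 over all genes tested. All 45 differences were negative, 27 were called lower and 0 higher, where 4.62% of all genes were called lower, and both WldS arrays lay below both C57BL/6 arrays in 43 genes, as in 25.8% of all genes. Kif20a (-0.88 ± 0.26, adjusted p = 0.0492), Melk (-0.85 ± 0.14, adjusted p = 0.000926), Kif2c (-0.83 ± 0.12, adjusted p = 0.000319), Bub1 (-0.81 ± 0.23, adjusted p = 0.0363) and Spc25 (-0.81 ± 0.13, adjusted p = 0.00097) differed most. By role, 5 of 6 kinesins, 4 of 6 kinetochore genes, 4 of 6 kinases with survivin, 3 of 4 checkpoint and 3 of 4 spindle assembly genes were lower, as were 3 of 6 chromosome structure genes, 2 of 5 cyclin and Cdk1 genes, 2 of 4 cytokinesis genes and 1 of 3 anaphase genes. The smallest differences were those of Hmmr (-0.13) and Espl1 (-0.23). The count of 27 was 11 without WldS day 3 replicate 1, 16 without WldS day 3 replicate 2, 16 without C57BL/6 day 3 replicate 1 and 13 without C57BL/6 day 3 replicate 2.

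At day 7 the median difference was -0.30, with 7 genes lower in WldS (Melk, Cenpf, Spc25, Kif4, Prc1, Mki67 and Top2a) and 0 higher, against 2.97% of all genes called lower. All 7 were among the 27 of 45 called lower at day 3. The tests of both days use the same estimate of each gene's spread, and the overlap was not tested. Spc25 (-0.70 ± 0.13, adjusted p = 0.0038), Mki67 (-0.62 ± 0.17, adjusted p = 0.041) and Cenpf (-0.58 ± 0.13, adjusted p = 0.0142) differed most of these. The count of 7 was 1 without C57BL/6 day 7 replicate 1, 2 without C57BL/6 day 7 replicate 2, 2 without WldS day 7 replicate 1, 3 without WldS day 7 replicate 2 and 4 without either WldS day 3 array.

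At day 14 the direction had turned. The median difference was 0.38, WldS being the higher, beside 0.02 over all genes tested, 43 of 45 differences were positive, and in 35 genes both WldS arrays lay above both C57BL/6 arrays, as in 30.4% of all genes. Called higher in WldS were 10 genes and lower 0, where 2.9% of all genes were called higher. They were Kif2c (1.03 ± 0.12, adjusted p = 0.000133), Hmmr (1.02 ± 0.12, adjusted p = 0.000161), Spc25 (0.79 ± 0.13, adjusted p = 0.00247), Ube2c (0.79 ± 0.17, adjusted p = 0.0112), Kif22 (0.74), Bub1b (0.67), Cenpf (0.64), Nuf2 (0.62), Prc1 (0.58) and Ckap2l (0.48). For 6 of these 10 (Kif2c, Kif22, Bub1b, Spc25, Cenpf and Ckap2l) no other probe set above the dim filter differed by more than 0.28, and Nuf2 and Ube2c had no other probe set. Of these 10, 8 were also among the 27 of 45 called lower in WldS at day 3, all but Kif22 and Hmmr. Both tests use the same estimate of each gene's spread, and the overlap was not tested. Ncapg (0.98) and Cdc20 (0.87) had wide differences that were not called, and Mki67 (0.24) and Top2a (0.07) were not called either. The count was 5 without WldS day 14 replicate 1 and 4 without either C57BL/6 day 14 array, and 14 without the 2 arrays with the highest 3'/5' index (WldS day 14 replicate 2 and WldS day 0 replicate 1).

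**Figure D3:**
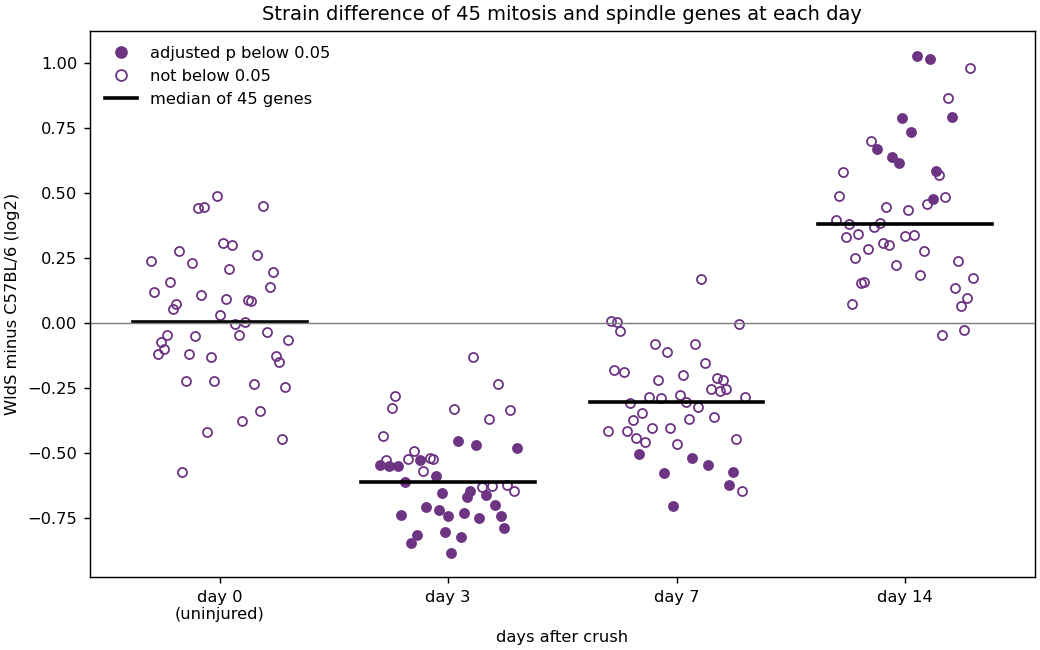
WldS minus C57BL/6 (log2, y axis) for the 45 genes at each day (x axis). Filled points passed limma's adjusted p of 0.05 and bars are medians, at 0.00, -0.61, -0.30 and 0.38 for days 0, 3, 7 and 14.

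The change from day 0 was also compared directly between strains. At day 3 the median interaction, the WldS change minus the C57BL/6 change, was -0.62, and 14 genes were called with a smaller rise in WldS and 0 with a larger one, where 2.15% of all genes were called that way. Spc25 (-1.29 ± 0.18, adjusted p = 0.000631), Ttk (-1.15 ± 0.16, adjusted p = 0.000596) and Kif2c (-1.12 ± 0.16, adjusted p = 0.000785) differed most of these. Part of this lies in uninjured nerve, where WldS was higher by 0.49, 0.44 and 0.30 in that order, with no call. At day 7 the median was -0.34, and Spc25 and Kif2c were called with a smaller rise in WldS, where 1.22% of all genes were. At day 14 the median was 0.37, and Melk, Cenpf, Kif2c and Hmmr were called with a larger rise in WldS, where 0.908% of all genes were. With the probe set used, Kif2c was therefore called in both directions, with a smaller rise in WldS at days 3 and 7 and a larger one at day 14. Its other probe sets had interactions of -0.52 to -0.003 at day 3 and of -0.11 to 0.18 at day 14. The others of Cenpf had -0.004 and 0.04 at day 14, against 1.06 for the one used. Leaving out single arrays turned the count of 14 into 4 (WldS day 3 replicate 1), 5 (WldS day 3 replicate 2), 6 (WldS day 0 replicate 1), 6 (C57BL/6 day 0 replicate 1), 9 (C57BL/6 day 0 replicate 2), 8 (C57BL/6 day 3 replicate 1), 5 (C57BL/6 day 3 replicate 2) and 8 (either C57BL/6 day 7 array), and it was 7 without the 2 arrays with the highest 3'/5' index. The day 7 count of 2 was 5 without WldS day 0 replicate 2, 4 without either WldS day 14 array and 1 without WldS day 0 replicate 1, either WldS day 3 array, WldS day 7 replicate 1, C57BL/6 day 0 replicate 1 or either C57BL/6 day 7 array. The day 14 count of 4 was 1 without WldS day 14 replicate 1, C57BL/6 day 0 replicate 1 or C57BL/6 day 14 replicate 2, and 2 without either WldS day 3 array, either C57BL/6 day 7 array or C57BL/6 day 14 replicate 1.

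Other kinetochore, spindle and mitotic entry genes rose as well, with smaller medians than the list. Of 32 other kinetochore and centromere genes tested, 20 rose in WldS and 26 in C57BL/6 at day 3 and 0 fell, with medians of 0.81 and 0.95. Cdca8 (borealin) and Incenp, the other passengers of the Aurkb complex, rose by 3.26 and 1.74 in WldS and 4.05 and 2.45 in C57BL/6, and Zwilch and Spdl1, which recruit dynein to kinetochores, by 1.82 and 1.64 and by 2.23 and 2.42. Of 32 other spindle and cytokinesis genes, 20 rose and 0 fell in WldS, and 22 rose and 1 fell in C57BL/6, led by Cep55, a protein of the midbody (4.16 and 4.75), with Arhgap11a (2.59 and 2.87), Ckap2 (2.86 and 3.13) and Iqgap3 (2.05 and 2.98). Of 26 other entry kinases and regulators, 16 rose and 3 fell in WldS, and 21 rose and 3 fell in C57BL/6. Pbk, a mitotic kinase, differed from the list in that it rose further from day 3 to day 7 in C57BL/6, by 0.62. Shcbp1, Trip13 and Cdca3 rose by 3.30, 3.00 and 1.82 in WldS and 3.63, 3.55 and 2.56 in C57BL/6.

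Of 16 cohesin and other condensin genes, 8 rose and 1 fell in WldS at day 3, and 3 rose and 3 fell in C57BL/6. Of all genes 20.8% rose in WldS and 22.6% in C57BL/6, so the C57BL/6 share was below that of all genes. Cdca5 (sororin), which protects cohesin until anaphase, rose by 3.76 and 4.54, and the condensin subunits Ncapg2 and Ncaph by 2.02 and 1.82 in WldS and 2.13 and 2.43 in C57BL/6. The 16 subunits and partners of the anaphase-promoting complex changed less, with 5 higher and 2 lower in WldS and 7 higher and 1 lower in C57BL/6 at day 3, medians of 0.24 and 0.07, and day 3 changes such as those of Anapc15 (1.11 and 1.15), Ube2s (0.60 and 0.97), Fzr1 (0.83 and 0.70) and Cdc16 (0.49 and 0.57). Limma called 0 of these 16 between the strains at any day, with 1, 2, 3 and 2 at an unadjusted p below 0.05 at days 0, 3, 7 and 14. Of all 14545 genes, 33, 1373 and 994 were called at days 0, 3 and 7, and 422 were called higher in WldS at day 14. At such shares few calls would fall among 16 genes, so the count of 0 does not set these genes apart. Among 18 pocket protein, MuvB and E2F regulators, 7 rose and 1 fell in WldS and 9 rose and 1 fell in C57BL/6, with Rbl1 (p107) at 2.17 and 2.18, E2f3 at 0.51 and 1.07, and the repressors E2f7 and E2f8 at 1.62 and 0.80 in WldS and 2.13 and 1.61 in C57BL/6.

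S-phase genes shared both strain differences in sign, with medians of -0.38 at day 3 and 0.26 at day 14. Of 24 tested, 23 rose in WldS and 24 in C57BL/6 at day 3, 5 were lower in WldS than in C57BL/6 at day 3, and 3 were higher at day 14. Rrm2, a subunit of ribonucleotide reductase, was -0.99 at day 3 and 0.96 at day 14 (WldS minus C57BL/6), and Ccne2 (cyclin E2) -0.86 and 0.96, all called. The helicase subunits Mcm5 and Mcm6 rose by 2.26 and 2.91 in WldS and 3.06 and 2.41 in C57BL/6 at day 3.

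**Figure D4:**
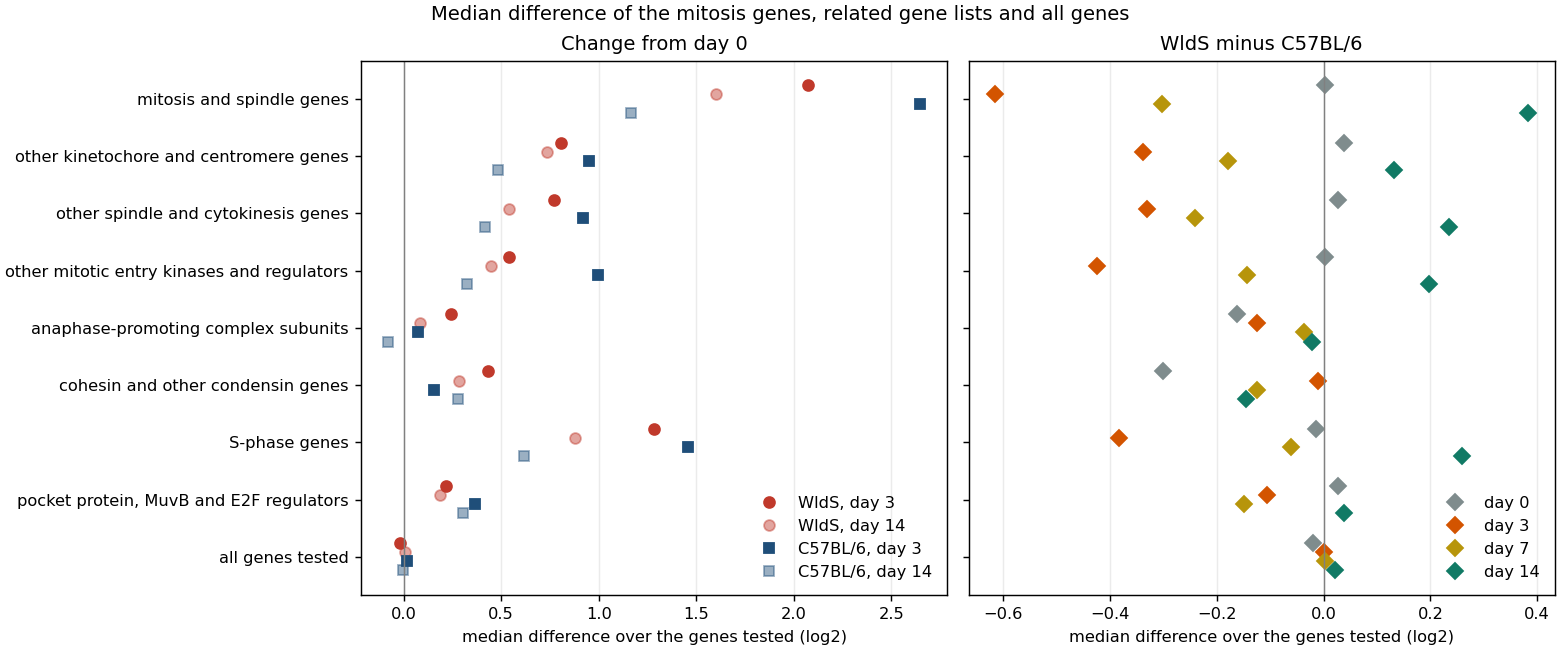
Median difference (log2, x axes) of the mitosis and spindle genes, 7 related lists and all 14545 genes tested (rows). On the left are changes from day 0, with circles for WldS and squares for C57BL/6, dark at day 3 and pale at day 14, and on the right WldS minus C57BL/6 at days 0, 3, 7 and 14. The mitosis and spindle genes lie farthest from 0 at day 3 on both sides, at 2.07 and 2.65 on the left and -0.61 on the right.

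Markers of the cells in the nerve moved alongside. All 11 measured macrophage and monocyte markers rose at day 3 in both strains, and their summed level (log2) was 15.3 to 15.4 in WldS and 15.2 in C57BL/6 at day 3, 14.6 to 14.8 and 15.0 at day 7, and 14.1 to 14.2 and 14.8 to 14.9 at day 14. At day 14, where mitosis genes were higher in WldS, 4 of these 11 markers were lower there (Cd68, Adgre1, Lyz2 and Fcgr1) and 0 higher. The share of all genes called lower at day 14 is not given here, so the count of 4 stands without it. At day 3, where mitosis genes were lower in WldS, limma called 0 of the 11. Of 9 measured Schwann cell markers, 4 were higher in WldS at day 3 (S100b, Mbp, Cnp and Egr2) and 2 lower (Ngfr and Cdh19), with summed levels of 14.9 in WldS and 14.4 to 14.5 in C57BL/6, and at day 14 of 15.5 to 15.6 and 15.7. All 5 perineurial markers and 4 of 5 mast cell markers were higher in WldS at day 3, with summed levels of 12.7 against 11.8 and of 10.8 to 11.1 against 9.30 to 9.73. Over all 14545 genes, 1373 were called between the strains at day 3, of which 672 were lower in WldS. No measured Schwann, perineurial, mast cell, endothelial, pericyte or fibroblast marker averaged below the dim filter in any group, and among macrophage markers only Itgam did. The part of these cells in the mitosis values was not tested.

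The other probe sets of the same genes qualify some of these values. Of 39 other probe sets above the dim filter, from 26 genes, 33 moved in the same direction as the one used in WldS at day 3 and 36 in C57BL/6, with smaller medians of 0.72 and 1.18, and 37 and 32 shared the sign of the strain difference at days 3 and 14. The sign of the day 3 interaction was shared by 36 and that of the day 14 interaction by 24. Averaged over every probe set of a gene, the median rise at day 3 was 1.36 in WldS and 1.87 in C57BL/6, and the counts between strains were 29 at day 3 and 12 at day 14. The Cdc25c, Aurkb, Kif22, Kif2c and Cdc20 probe sets used end in _x_at, a type that can also detect related sequences. Other Kif2c probe sets changed by -0.10 to 1.39 in C57BL/6 at day 3, and by -0.18 to 0.28 between the strains at day 14, against 1.03 for the one used. For Kif22 the other 2 differed by 0.04 and 0.12 between the strains at day 14, and for Bub1b by 0.02 and -0.01, while the second Prc1 probe set differed by 0.47. The other Spc25 probe set differed by 0.12 between the strains at day 14, against 0.79 for the one used, and changed by 0.06 in WldS and 0.36 in C57BL/6 at day 3, against 2.07 and 3.37. The others of Cenpf differed by 0.25 and 0.18 at day 14, against 0.64, and that of Ckap2l by 0.14, against 0.48. For Hmmr, 1 other probe set differed by 1.81 at day 14 and by 0.66 at day 3, and another by 0.06 and -0.71. Racgap1 and Cenpe, among the weaker responders, had dimmer probe sets with larger rises, 2.16 and 3.20 in WldS and 3.20 and 3.76 in C57BL/6 at day 3, so their place in the order depends on the probe set. At day 14 in WldS those dimmer probe sets stood 2.34 and 2.85 above day 0, against 0.30 and 0.48 for the ones used. The WldS shares kept by both genes, and their not being called at day 14, thus hold for the probe sets used.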

How the data were processed

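RNA of 16 nerve pools was measured on Affymetrix Mouse Genome arrays. The authors deposited log2 values per probe set, already normalized between arrays, and GCOS 1.4, Partek, RMA and limma were among the tools listed, with no role given, per the submitters' processing notes. Of 45101 probe sets, 64 controls were left out, and 34945 carried a single gene symbol, 932 several and 9160 none. A gene took its probe set with the highest mean, and genes under the 30th percentile of probe set means (log2 5.37) were left out, which kept 14545 of 18193 genes.

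All 16 arrays entered 1 limma 3.58.1 fit in R 4.3.3 (lmFit and eBayes, 8 group means, 8 residual degrees of freedom, no covariates), with 19 contrasts and Benjamini-Hochberg adjustment over all genes tested in each, and a gene was called at an adjusted p below 0.05. An interaction is the change in WldS minus the change in C57BL/6. Errors after ± are limma standard errors. With 2 arrays per group the precision is limited by their number. The fit was tested on simulated data. Per-array values are given for the gene with the highest mean in each role and for Mki67, Top2a, Cdk1, Cdc20 and Espl1. For each comparison up to 5 called genes with the largest changes are named, and from each related list up to 4. The members, lists and marker genes were chosen with earlier results of these data known. Alternatives comprised 12 other settings and 16 fits that each left out 1 array.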

Additional observations from a re-analysis of the deposited data

Results flagged for a closer look

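These differences between the strains passed limma's test of the interaction across all genes, and no explanation was weighed. The rise from day 0 to day 3 was smaller in WldS than in C57BL/6 for 14 genes (log2 interaction, adjusted p 0.000596 to 0.0476). Those of the spindle checkpoint and kinetochore were Ttk (-1.15), Bub1b (-0.76), Spc25 (-1.29) and Cenpe (-0.97). Part of each lies in uninjured nerve, where WldS was higher by 0.44, 0.23, 0.49 and 0.45 in that order, with no call. Motors and cytokinesis genes were Kif2c (-1.12), Kif4 (-0.73), Kif23 (-0.66), Racgap1 (-0.92) and Prc1 (-0.84). The others were Ccna2 (-0.79), Aurka (-0.79), Ckap2l (-0.56), Mki67 (-0.94) and Top2a (-0.66). At day 7 the rise was smaller in WldS for Spc25 (-1.19) and Kif2c (-0.67). At day 14 it was larger in WldS for Melk (0.85), Cenpf (1.06), Kif2c (0.73) and Hmmr (1.02). No other Kif2c or Cenpf probe set exceeded 0.18 there.

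The step from day 7 to day 14 was less negative, or positive, in WldS for 9 genes (adjusted p 0.000253 to 0.0476). They were Bub1b (0.95), Cenpf (1.22), Nuf2 (1.02), Spc25 (1.49), Kif2c (1.4), Hmmr (0.85), Ckap2l (0.63), Prc1 (1.13) and Ube2c (1.01). No other probe set of Bub1b, Cenpf, Spc25, Kif2c or Ckap2l exceeded 0.43 in this step difference. The other of Prc1 had 1.04, and those of Hmmr above the dim filter had 0.90 and 0.61. Nuf2 and Ube2c had no other probe set. Of 39 other probe sets of the list above the dim filter, 37 shared the sign, with a median of 0.39. No group had enough arrays for a search for outlying samples.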

How the results depend on the processing

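Of the 398 calls on single genes (381 of them where the dim filter was stricter), 0 changed direction under any of the 28 alternatives. With the mean of all probe sets of a gene, the median changes from day 0 were 1.36, 1.27 and 0.998 in WldS and 1.87, 1.54 and 0.822 in C57BL/6 at days 3, 7 and 14, the C57BL/6 steps were -0.27 (day 7 minus day 3) and -0.72 (day 14 minus day 7), the strain difference at day 3 was -0.525, and 1 gene was called in the day 14 interaction. Without the 2 arrays with the highest 3'/5' index the WldS median at day 14 was 1.77, the median day 14 interaction 0.55, 2 genes were called lower from day 3 to day 7 in WldS and 7 in the day 3 interaction. With that index as a covariate the C57BL/6 median at day 3 was 2.76, 2 genes were lower from day 3 to day 7 in WldS, and 1 gene was called in the difference of the day 3 to 7 steps. The dim filter at the 50th percentile gave a WldS median of 1.87 at day 14. With only the arrays of the groups compared, 0 genes were called from day 3 to day 7 in WldS, 3 between strains at day 7, and 6, 1 and 0 in the interactions of days 3, 7 and 14. An intensity trend in eBayes called 1 gene lower from day 7 to 14 in WldS and 1 in the difference of the day 3 to 7 steps. The day 7 interaction counted 1 under quantile normalization, 4 under cyclic loess and 1 with array weights, which also gave 2 in the day 14 interaction, 1 in the difference of the day 3 to 7 steps and 14 in that of days 7 to 14. The cause of these shifts was not tested.

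Leaving out each array in turn gave 44 to 44, 44 to 44 and 40 to 42 genes called in WldS and 44 to 45, 44 to 45 and 37 to 41 in C57BL/6 at days 3, 7 and 14 against day 0, with medians of 1.94 to 2.23, 1.66 to 2.01 and 1.5 to 1.87 in WldS and 2.55 to 2.73, 2.10 to 2.25 and 1.10 to 1.26 in C57BL/6. Steps from day 3 to 7 and 7 to 14 counted 0 to 7 and 0 to 7 in WldS (medians -0.22 to -0.02 and -0.37 to -0.13) and 9 to 23 and 29 to 41 in C57BL/6 (-0.45 to -0.38 and -1.01 to -0.93). Between strains the counts at days 0, 3, 7 and 14 were 0 to 1, 11 to 30, 1 to 8 and 4 to 13 (medians -0.02 to 0.09, -0.67 to -0.51, -0.44 to -0.19 and 0.26 to 0.51). Interactions at days 3, 7 and 14 counted 4 to 19, 1 to 5 and 1 to 6 (-0.67 to -0.54, -0.51 to -0.15 and 0.25 to 0.43), and the differences of the steps 0 to 3 and 3 to 13 (0.14 to 0.35 and 0.54 to 0.86). Where leaving out an array left 1 in a group, the lone array was taken to vary like the other groups.

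Arrays with the same replicate number showed no steady pairing. Over 28 pairs of groups the correlation of their deviations ran from -0.58 to 0.19 (median 0.006, 5 over 0.1). The lowest was that of WldS day 0 with WldS day 14. Whether groups share a batch under other numbering was not tested. The replicate block moved the day 14 interaction from 4 genes to 2, and gave 26 genes between strains at day 3, 10 at day 14, 12 in the day 3 interaction and 7 in the difference of the day 7 to 14 steps.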
